A study of Mus musculus with 6 samples.

Results

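The genes described here encode the proteins of the cytosolic ribosome. They were taken as every probe set whose annotation listed exactly 1 gene, with a symbol of the Rpl or Rps series (Rpl or Rps, a number and at most a final a or x) or Rplp0, Rplp1, Rplp2 or Rpsa. The choice used no measured value. It gave 94 probe sets for 42 genes, 22 of the large subunit and 20 of the small subunit, out of 45037 probe sets and 18193 genes. In all, 69 ribosomal protein symbols appeared in the annotation, and 27 of them appeared only on probe sets that list several genes. The 110 probe sets that list a ribosomal protein gene beside others were not used to name a gene.

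Total RNA came from the brain, without the cerebellum, of Gb5-deficient mice (Gb5ko, 3 samples, numbered 1 to 3) and wild type mice (Gb5wt, 3 samples, numbered 4 to 6). Gb5 is the G protein subunit beta 5, encoded by Gnb5 on chromosome 9, and the labels name no other allele, agent or treatment. By the labels, the samples are biological replicates, and the cohorts were littermates of like age and the same make-up by sex. The Y-linked transcript Eif2s3y was high on an array of each genotype, Gb5ko replicate 2 (11.28) and Gb5wt replicate 4 (11.26). Xist, from the X chromosome, was also high on Gb5ko replicate 2 (8.31) but not on Gb5wt replicate 4 (4.96). Whether the genotypes were matched for sex was not tested. The sources used here do not give the strain, age or sex, nor the way the deficiency was made. Each sample was hybridised to 1 Affymetrix expression array, and all levels below are RMA values on the log2 scale, in which a difference of 1 is a doubling. RMA adjusts background, brings arrays to a common distribution and combines the probes of a probe set. A level reflects both the transcript and how well its probes bind, so levels were compared between arrays and not between genes. In bulk tissue, fewer cells of a type and less RNA per cell cannot be told apart. Only the spread between these samples enters the p-values.

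A ribosome has a small subunit, which holds the mRNA and the decoding site, and a large subunit, which joins amino acids and releases the growing chain through an exit tunnel. Each subunit is made of ribosomal RNA and 1 copy of most of its proteins, so the proteins are needed in fixed proportions. In mammals their mRNAs start with a run of pyrimidines at the cap (the 5′ terminal oligopyrimidine motif), through which mTOR signalling and the RNA-binding protein LARP1 set their translation together. Neurons use ribosomes in the cell body and in dendrites, and need new protein for lasting synaptic change. Many ribosomal protein genes have processed pseudogenes, which makes near-identical sequence a known difficulty for short array probes.

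The start sites of these genes show what they share apart from the name. RefSeq promoter windows of GRCm38.p6 were each 300 bases long, with 250 before and 50 after the annotated start. They were found by Entrez identifier for 37 of the 42 genes (43 windows). A pyrimidine tract was counted as a C followed by at least 5 further bases that are each C or T, on the transcribed strand, touching the stretch from 10 bases before to 15 bases after the start. It was present in 25 of the 43 windows (58.1%) and in 26.2% of all 32851 windows. CGGAAG or its reverse complement CTTCCG, the core of an ETS factor motif, was present in 62.8% of the ribosomal protein windows and 16.9% of all windows. AAGATGG or CCATCTT, the core of the YY1 motif, was present in 16.3% against 6.34%. TATAAA on the transcribed strand, 40 to 16 bases before the start, was present in 0 of the 43 windows and in 1.99% of all windows. The tract and CTTCCG can share bases, and a match of letters is not a measured site. The 7 stretches below run from 60 bases before to 20 bases after the start, 5′ to 3′ on the strand of the gene, with the pyrimidine tract in capitals. They belong to genes with 1 window and a level of 10 or more, from the ends of the order of differences: Rpsa, Rplp0 and Rpl35 had higher means in Gb5ko, and Rps9, Rps18, Rpl38 and Rps28 had lower ones.
Rpsa: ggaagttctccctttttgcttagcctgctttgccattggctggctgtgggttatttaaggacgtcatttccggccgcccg
Rplp0: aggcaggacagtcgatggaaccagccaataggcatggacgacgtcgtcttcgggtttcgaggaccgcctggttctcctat
Rpl35: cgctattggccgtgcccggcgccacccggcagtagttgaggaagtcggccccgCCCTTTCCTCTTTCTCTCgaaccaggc
Rps9: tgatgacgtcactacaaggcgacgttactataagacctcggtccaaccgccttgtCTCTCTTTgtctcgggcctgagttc
Rps18: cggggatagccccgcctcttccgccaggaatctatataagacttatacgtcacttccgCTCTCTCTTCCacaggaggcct
Rpl38: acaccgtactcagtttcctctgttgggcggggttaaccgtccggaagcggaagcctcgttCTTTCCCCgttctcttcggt
Rps28: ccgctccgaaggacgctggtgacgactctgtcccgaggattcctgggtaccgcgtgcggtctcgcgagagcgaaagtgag
They lie at chr9:120127706-120127785 on the plus strand, chr5:115559407-115559486 on the plus strand, chr2:39005112-39005191 on the minus strand, chr7:3703981-3704060 on the plus strand, chr17:33955646-33955725 on the minus strand, chr11:114668520-114668599 on the plus strand and chr17:33824543-33824622 on the minus strand. A tract lay at the annotated start in Rpl35 as well as in Rps9, Rps18 and Rpl38. None touched the searched bases in Rpsa and Rplp0 or in Rps28. Both ends of the order thus held windows with and without a tract at the annotated start. Where the transcripts of these samples start was not tested, so a window without a tract does not show an mRNA without one. Over all genes with a window, the 24 with a tract had a median difference of 0.12 (19 positive) and the 13 without had 0.084 (9 positive).

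The labels held for the targeted gene: the main Gnb5 probe set read 3.67, 2.997 and 3.56 in Gb5ko against 8.79, 8.98 and 9.30 in Gb5wt (difference -5.62 ± 0.193, SE of the fit, limma adjusted p = 4.48e-06). Snap25, a synaptic protein of neurons, read 12.62, 12.74 and 12.88 in Gb5ko and 13.03, 13.11 and 13.10 in Gb5wt. These groups did not overlap (difference -0.33, limma adjusted p = 0.2551), and 4 of the 6 neuron markers had a positive difference. Of 5 markers of the cerebellum, which was not part of the samples, Gabra6 read 2.80 to 3.54 and Cbln3 3.83 to 4.96, whereas Cbln1 read 10.64 to 11.31, Pcp2 8.51 to 8.73 and Car8 8.01 to 8.21. Some arrays stood apart. Gb5wt replicate 4 was the only array with a low level of Xist, the RNA of the inactive X chromosome (4.96, against 8.31 to 10.81 on the others), and it read 11.26 for the Y-linked Eif2s3y. Gb5ko replicate 2 read high both for Xist (8.31) and for Eif2s3y (11.28), and Eif2s3y read 2.96 to 6.97 on the other 4 arrays. Gb5ko replicate 3 read 10.62 for the pituitary hormone gene Gh, where the other arrays read 4.199 to 6.21. The median difference of the ribosomal protein genes given below, 0.088, was 0.087 without Gb5ko replicate 2 and 0.056 without Gb5wt replicate 4, and it was 0.11 without Gb5ko replicate 3 and Gb5wt replicate 6, the arrays of highest Gh.

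No ribosomal protein gene changed past the threshold. Each gene was read by its brightest probe set, and 0 of 42 genes passed an adjusted p of 0.05 in limma's fit over all 45037 probe sets, where 4 of 18193 genes passed (0.022%). Of the 94 probe sets 0 passed, against 0.0266% of all probe sets. At an adjusted p of 0.1 there were also 0 genes and 0 probe sets, against 0.055% of all genes and 0.0977% of all probe sets. At an unadjusted p under 0.05 there were 3 genes with a higher mean in Gb5ko (Rpl8, Rpsa and Rpl35) and 1 with a lower mean (Rps9), that is 7.14% and 2.38% of the 42 against 9.89% and 5.68% of all genes. Over the 94 probe sets it was 5 higher and 3 lower, where 8.09% and 6.33% of all probe sets were. Without Gb5ko replicate 1 the count was 0 genes, where 5.67% of all genes were then higher and 3.79% lower. Without Gb5wt replicate 4 it was 0 higher and 2 lower (6.24% and 3.55% of all genes). Without Gb5wt replicate 5 it was 2 higher and 0 lower (7.63% and 4.50% of all genes). A trended, robust variance model gave 10 genes, 7 higher and 3 lower (11.2% and 6.9% of all genes). The 95% interval of the difference lay inside a 1.5-fold change in either direction (0.585 on the log2 scale) for 37 of the 42 genes. The other 5, whose intervals reach further, were Rpl8, Rplp0, Rps25, Rps9 and Rpsa.

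Most of the small differences were positive. The difference, Gb5ko minus Gb5wt, was above 0 in 32 of the 42 genes (76.2%) and in 59.9% of all genes, and over probe sets in 67 of 94 against 55.5%. Its median was 0.088 over the ribosomal protein genes and 0.046 over all genes, and it ran from -0.35 to 0.36. All 3 Gb5ko values lay above all 3 Gb5wt values in 12 genes and below them in 5, which is 28.6% and 11.9% of the 42 against 16.1% and 9.01% of all genes. Leaving out Gb5wt replicate 4 brought the median to 0.056 (all genes 0.044), and leaving out Gb5ko replicate 3 raised the 17 genes with separate groups to 26 (19 above and 7 below, where 23.5% and 13.2% of all genes then were). After each array was centred again on its own median, 7 genes lay above and 7 below, against 14.8% and 9.55% of all genes. When each array was left out in turn, the difference stayed within 1.5 times its value in 8 of the 27 genes named here, among them Rpl8, Rpsa, Rpl35 and Rps9. It shrank by more than that in 9 genes without Gb5ko replicate 1 and in 7 without Gb5wt replicate 4. Over the 110 probe sets that list a ribosomal protein gene with others, the median was 0.034 and 63 were positive.

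**Figure D1:**
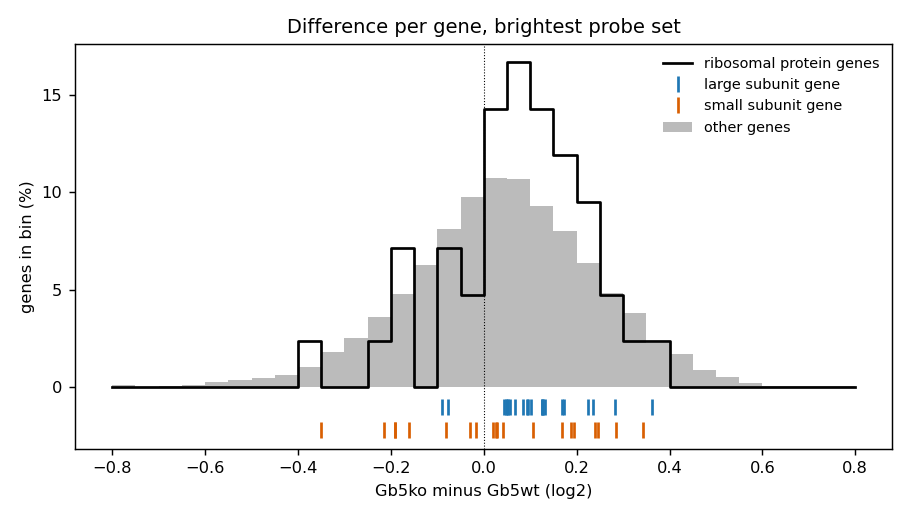
Difference between Gb5ko and Gb5wt (log2, x axis) as the percentage of genes in each bin (y axis) for the 42 ribosomal protein genes (line) and all other genes (grey), each read by its brightest probe set, with 1 tick below the axis for each large subunit and small subunit gene. Other genes beyond the ends of the bins are counted in the first or last bin. The large subunit ticks lie above 0 in 20 of 22 genes, and the small subunit ticks spread to both sides, 12 above and 8 below.

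In the large subunit 20 of 22 genes had a positive difference (90.9%, against 59.9% of all genes), with a median of 0.098. The largest was that of Rpl8. Rpl8, which lies close to the catalytic centre for peptide bonds, read 12.09, 11.96 and 11.79 in Gb5ko and 11.36, 11.72 and 11.67 in Gb5wt. The groups did not overlap, and Gb5wt replicate 4 was the lowest array. Its difference was 0.36 ± 0.130 (95% interval 0.067 to 0.66, limma adjusted p = 0.2795).

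The stalk, which recruits the GTPase translation factors, was covered by 3 genes with differences of 0.068 to 0.28. Rplp0, the scaffold of the stalk, read 11.76, 11.46 and 11.26 in Gb5ko and 11.07, 11.34 and 11.22 in Gb5wt. The lowest Gb5ko value lay below the highest Gb5wt value, and the difference was 0.28 ± 0.144 (limma adjusted p = 0.3984), or 0.146 without Gb5ko replicate 1. Rplp2, an acidic protein of the stalk, read 13.99, 13.80 and 13.71 against 13.64, 13.70 and 13.67, with the groups just apart at a difference of 0.17, or 0.088 without Gb5ko replicate 1. Rpl12, at the stalk base, was read only by a dim probe set at 7.78 on average, with a difference of 0.068, or 0.014 without Gb5wt replicate 4. Rplp1 was not on a probe set of its own.

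At the tunnel exit, where the nascent chain leaves and chaperones dock, all 5 measured genes (Rpl4, Rpl19, Rpl22, Rpl35 and Rpl39) had positive differences with a median of 0.13. Rpl35 read 14.13, 14.03 and 13.99 in Gb5ko and 13.72, 13.88 and 13.84 in Gb5wt. All 3 Gb5ko values were above the Gb5wt values, by 0.24 ± 0.101 in the mean (95% interval 0.007 to 0.465, limma adjusted p = 0.3348). Rpl19 read 13.31, 13.24 and 13.16 in Gb5ko and 12.67, 13.21 and 13.15 in Gb5wt. The difference of 0.22 rested on 1 array, and it was 0.055 without Gb5wt replicate 4. Rpl4, which lines the tunnel, had a difference of 0.13, Rpl22, which has the close paralog Rpl22l1, also had 0.13 (0.062 without Gb5ko replicate 1), and Rpl39 had 0.047 at a dim level of 5.38. Rpl11, which with Rpl5 and the 5S RNA binds the p53 regulator MDM2 when assembly fails, read 13.33, 13.30 and 13.22 against 13.09, 13.18 and 13.20. Its groups were apart by a small margin and the difference was 0.13. The 2 large subunit genes with a lower mean in Gb5ko were Rpl38, known for its part in Hox mRNA translation (-0.091), and Rpl37 (-0.078, at a dim level of 4.55).

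In the small subunit 12 of 20 genes were positive, near the share of all genes (60% against 59.9%), with a median of 0.028. Rpsa, an assembly and binding site protein of the small subunit also known as the laminin receptor precursor, read 12.74, 12.55 and 12.49 in Gb5ko and 12.07, 12.42 and 12.27 in Gb5wt. The groups did not overlap and the difference was 0.34 ± 0.124 (95% interval 0.061 to 0.62, limma adjusted p = 0.2805). Rps19, the gene most often altered in Diamond-Blackfan anaemia, read 12.030, 12.094 and 11.862 against 11.561, 11.826 and 11.857, a difference of 0.25 with the groups just apart, or 0.154 without Gb5wt replicate 4. A short list of genes linked to that anaemia, which was not a complete one, had 6 measured genes: Rps7, Rps10, Rps19, Rps24, Rps26 and Rpl11. Of these, 5 had a positive difference (83.3%, against 59.9% of all genes), with a median of 0.16, and Rps24 had -0.030. The signs hold for this list only. Rps27, a zinc finger protein, had 0.24 at a dim level of 6.995, or 0.125 without Gb5ko replicate 1. Rps25, which is needed for start at some internal ribosome entry sites, varied most. It read 9.59, 9.70 and 9.001 in Gb5ko and 9.70, 9.39 and 8.35 in Gb5wt, a difference of 0.285 ± 0.321 that turned to -0.11 without Gb5wt replicate 6.

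Of the 10 genes with a lower mean in Gb5ko, 8 were small subunit genes. Rps9, a protein at the mRNA entry side, read 12.43, 12.83 and 12.66 in Gb5ko and 13.01, 13.02 and 12.93 in Gb5wt. All Gb5ko values lay below the Gb5wt values, with Gb5ko replicate 1 the lowest, and the difference was -0.35 ± 0.121 (95% interval -0.62 to -0.078, limma adjusted p = 0.2693). Rps29, a small zinc-binding protein, read 13.85, 13.87 and 13.92 against 14.14, 14.05 and 14.01, also without overlap, a difference of -0.19. Its other 2 probe sets, both bright, gave 0.042 and 0.070, and over the 6 arrays they had r of 0.037 and -0.12 with the first. Rps6, the substrate of S6 kinase downstream of mTOR, read 8.94, 8.80 and 9.10 against 9.13, 9.13 and 9.15. Its groups were separate by a narrow margin at a difference of -0.19, or -0.12 without Gb5ko replicate 2. Rps18 had -0.215 on its brightest probe set, Rps16 -0.16 at a dim level of 2.33, and Rps28 -0.081. The remaining small subunit genes with a lower mean were Rps24 (-0.030) and Rps4x (-0.017). For Rps9, Rps18, Rps29, Rps6, Rps28, Rps24 and Rps4x the sign depended on the probe set, and Rps16 had only 1 probe set.

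Probe sets of a gene did not always give the same difference. They read the same RNA samples and are not replicates. The cause of the gaps between them was not tested. Of the 42 genes 20 had 1 probe set and 22 had 2 to 6, and in 16 of these 22 the differences had both signs. The median gap between the highest and lowest difference of a gene was 0.18. Much of this came with dim probe sets. Among the 17 genes with at least 2 probe sets at a mean of 10 or more, a level chosen after the values were seen, 8 had both signs and the median gap was 0.086. Over the 6 arrays, pairs of such bright probe sets of the same gene had a median Pearson r of 0.83 (55 pairs, 46 above 0). Pairs of a bright and a dim probe set had 0.13 (46 pairs).

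**Figure D2:**
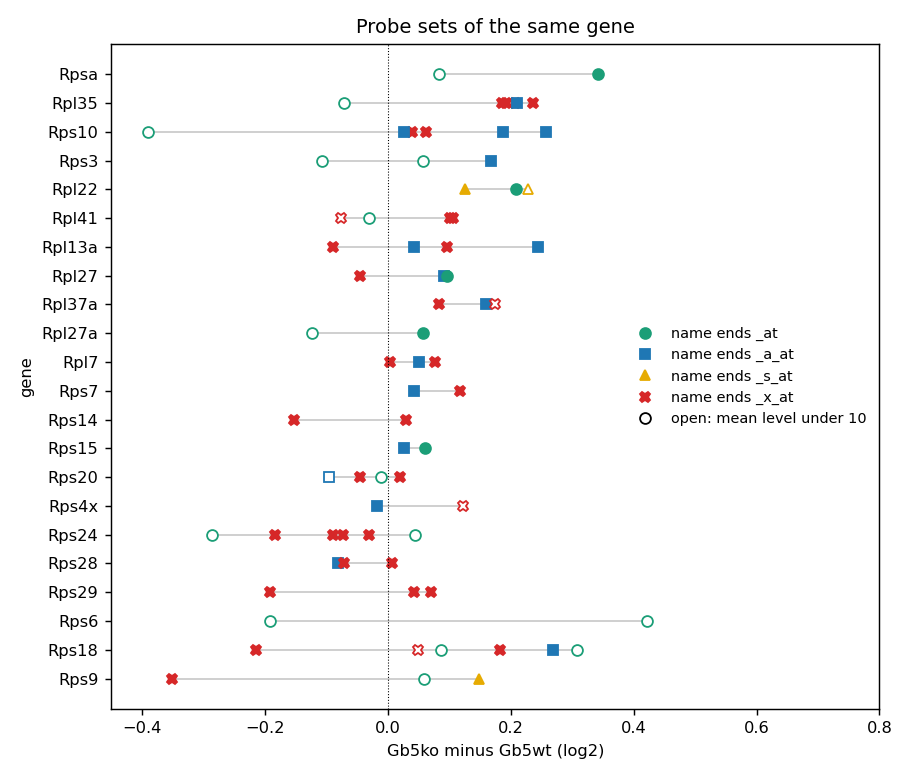
Difference between Gb5ko and Gb5wt (log2, x axis) for each probe set of the 22 genes with more than 1 probe set (y axis), with the shape and colour for the ending of the probe set's name and open symbols for a mean level under 10. Rps9 and Rps18 each hold a bright _x_at probe set below 0 and another bright probe set above 0, and the 5 bright probe sets of Rpl35 lie between 0.19 and 0.24.

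Rpl35 showed close agreement, with 5 bright probe sets at 0.19 to 0.24, each with all Gb5ko values above all Gb5wt values. The sixth was dim, at 6.49, and had -0.072. Rps9 had the widest bright gap, 0.50. Its _x_at probe set, an ending that marks probes which may bind other transcripts, gave -0.35. Its _s_at probe set, an ending left out below together with _x_at, read 12.45, 12.33 and 12.18 in Gb5ko and 11.94, 12.27 and 12.31 in Gb5wt, a difference of 0.15. On Gb5ko replicate 1 the _x_at probe set was at its lowest of the 6 arrays and the _s_at probe set at its highest. The _at probe set of Rps9 was dim, at 5.02, and gave 0.058. Rps18 had 3 bright probe sets. The brightest, an _x_at probe set, read 13.031, 13.228 and 13.085 against 13.234, 13.386 and 13.371, a difference of -0.215 with no overlap. The _a_at probe set, an ending for transcripts of 1 gene, read 13.18, 13.06 and 12.91 against 12.71, 12.78 and 12.85, a difference of 0.27, also with no overlap and in the other direction. The third gave 0.18.

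Rps10, a protein at the mRNA entry channel that is modified when ribosomes stall, had 5 bright probe sets at 0.026 to 0.26. Its dim probe set read 5.03, 4.89 and 4.93 against 5.24, 5.39 and 5.40, a difference of -0.39 ± 0.102. That was the smallest adjusted p of all 94 probe sets (limma adjusted p = 0.2160). Rpl13a, which also takes part in translational silencing in inflammation, spread from -0.090 to 0.245 over 4 bright probe sets. Rps24 had 4 bright probe sets between -0.18 and -0.030, and dim ones at -0.29 and 0.044. Rps6 had only dim probe sets, and its second, at 5.53, gave 0.42 against -0.19 for the first.

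**Figure D3:**
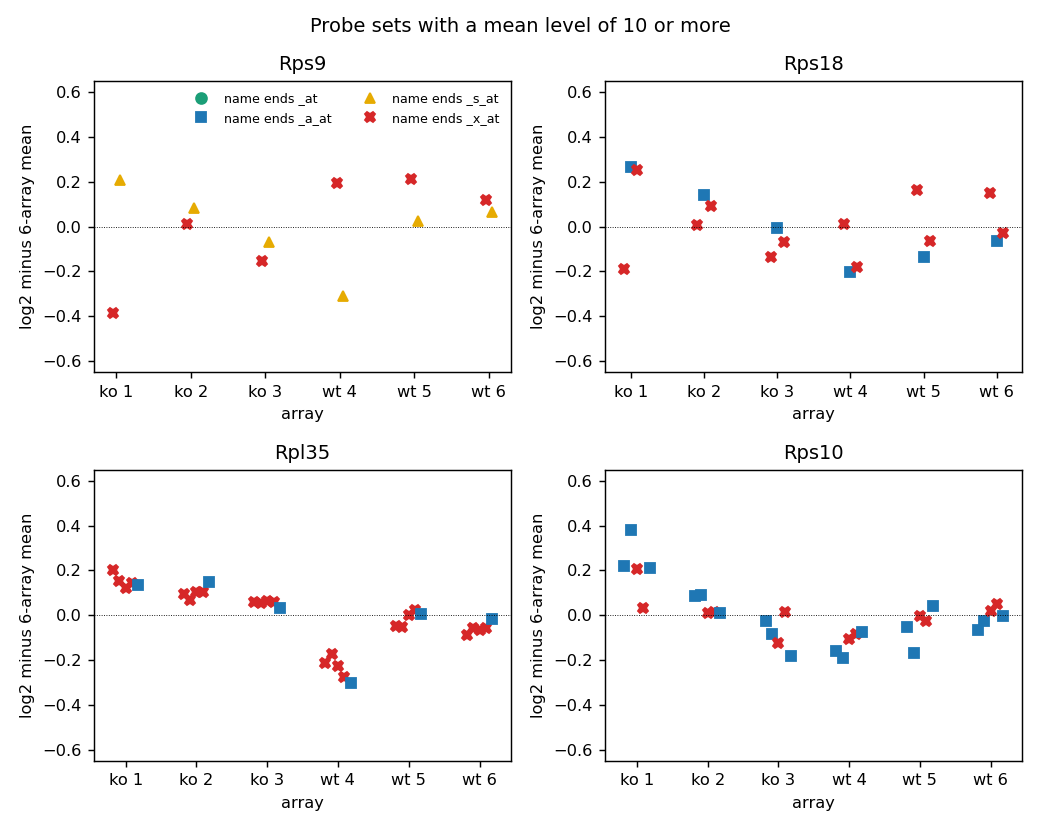
Level on each array minus the mean of the 6 arrays (log2, y axis) against the array (x axis) for the probe sets of Rps9, Rps18, Rpl35 and Rps10 with a mean level of 10 or more, with shape and colour for the ending of the name. The probe sets of Rpl35 move together, with Gb5wt replicate 4 lowest in all of them, whereas the _x_at and _s_at probe sets of Rps9 part most on Gb5ko replicate 1 and Gb5wt replicate 4.

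The ending of the name went with the sign. Of the 31 bright _at and _a_at probe sets, 29 had a positive difference, with a median of 0.16 (93.55%, against 51.8% of other bright _at and _a_at probe sets). In 11 the Gb5ko values lay above all Gb5wt values and in 0 below (35.5% and 0%). The shares were 16.4% and 15.7% of other bright _at and _a_at probe sets, and 12.5% and 8.95% of all probe sets. Of the 33 bright _x_at probe sets 20 were positive, with a median of 0.029 (60.6%, against 46.8% of other bright _x_at probe sets). Their groups lay apart in 9 upward and 7 downward (27.3% and 21.2%, against 19.1% and 27.0% of other bright _x_at probe sets). Bright probe sets of other genes had medians of 0.008 (_at and _a_at) and -0.028 (_x_at). In the 10 genes with both kinds of bright probe set, counting _s_at with the first kind, the mean difference of the _x_at probe sets was lower in 8, and the median gap over the 10 was -0.091. With _s_at and _x_at probe sets left out of the whole array, 37 genes remained measured, with a median of 0.13 against 0.049 for all genes, 30 of them positive (60.5% of all genes), and the groups lay apart upward in 12 and downward in 2 (15.9% and 8.56% of all genes). What the _x_at probes bound was not tested.

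Probe set signals were mostly high, and they describe the probe sets and do not rank the transcripts. The brightest probe set of 34 genes had a mean of 10 or more, and the median over the 42 genes was 12.90 against 7.38 for other genes. Rpl41, which encodes a very short basic protein, was the highest at 14.30, the highest mean of all 45037 probe sets. Rps29, Rpl35, Rpl38 and Rplp2 followed at 13.97, 13.93, 13.88 and 13.75. The 8 genes under 10 were Rps25, Rps6, Rpl14, Rpl12, Rps27, Rpl39, Rpl37 and Rps16, whose probe sets read from 9.29 down to 2.33. For the bright genes alone the median difference was 0.094 with 27 of 34 positive (79.4%). Other probe sets at 10 or more had a median of 0.005, and 51.2% of them were positive.

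Over the single arrays the ribosomal protein genes stood highest on Gb5ko replicate 1 and lowest on Gb5wt replicate 4. Their median deviation from each gene's mean of the 6 arrays was 0.077, 0.050 and -0.011 on the Gb5ko arrays and -0.096, -0.002 and -0.010 on the Gb5wt arrays. Gb5wt replicate 4 held the lowest value of 22 of the 42 genes (52.4%, against 26% of other genes), and Gb5ko replicates 1 and 2 the highest of 18 and 12 (42.9% and 28.6%, against 35% and 12.5% of other genes). On Gb5ko replicate 3 and Gb5wt replicates 5 and 6 the medians were thus close to 0. In the bright large subunit genes the median deviation was 0.13 on Gb5ko replicate 1 and -0.16 on Gb5wt replicate 4, and in the bright small subunit genes it was 0.003 and -0.018. Genes outside the ribosome had a median deviation of 0.049 on Gb5ko replicate 1 and -0.021 on Gb5wt replicate 4.

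**Figure D4:**
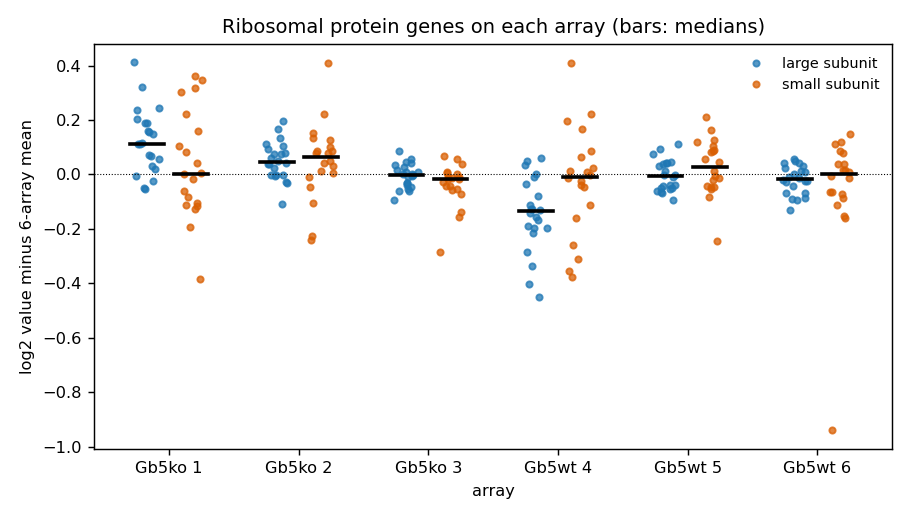
Level on each array minus the mean of the 6 arrays (log2, y axis) for each large subunit and small subunit gene on each array (x axis), read by its brightest probe set, with bars at the medians. Gb5wt replicate 4 holds the lowest value of 22 genes and Gb5ko replicate 1 the highest of 18, and the point near the bottom right is Rps25 on Gb5wt replicate 6.

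Gb5wt replicate 4, which also stood apart in Xist, had the highest values of 2 measures of RNA quality. The 3′ minus 5′ difference of the Gapdh control probe sets was 1.38 on Gb5wt replicate 4 and 1.03 to 1.30 on the other 5 arrays, and that of beta actin was 3.40 against 3.04 to 3.31. Summed levels of markers of some other cell types did not overlap between the genotypes. A sum of linear levels is set mostly by the brightest genes of its list, such as Hbb-b2 for red cells, Csf1r for microglia and Cbln1 for the cerebellum. The summed linear level of 4 measured red cell genes was 1758 to 1960 in Gb5ko and 2282 to 3572 in Gb5wt, with all 4 differences below 0, and that of 5 fibroblast genes was 2882 to 3195 against 3570 to 4177, again all 5 below 0. The summed level of 5 microglial genes was 4711 to 5463 against 4141 to 4250, with 4 of 5 differences above 0. For 5 astrocyte genes it was 12953 to 15453 against 15605 to 17396, with 3 of 5 differences below 0, and for the 5 cerebellar genes 2475 to 3270 against 2267 to 2446, with 4 of 5 above 0. The sums of the neuron, oligodendrocyte, endothelial, pituitary, choroid plexus and ependymal markers overlapped. Among these, all 5 oligodendrocyte differences were below 0 (sums of 13219 to 16791 in Gb5ko and 16553 to 18814 in Gb5wt), and all 6 pituitary differences were above 0. Without detection calls, none of these markers could be placed at 0. The part of these values in the ribosomal protein differences was not tested.

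Within a genotype the genes of the large subunit varied together. After each gene's group means were removed, which leaves 4 degrees of freedom over the 6 arrays, the median Pearson r over pairs of the 42 genes was 0.17, and it was 0.012 over pairs of all genes. It was 0.33 over the 34 bright genes and 0.019 over all genes at that level. Pairs of bright large subunit genes had 0.635 (18 genes) and pairs of bright small subunit genes 0.14 (16 genes). Such values were not limited to the cytosolic ribosome. Of the other lists described below, the mitochondrial ribosomal proteins had 0.51 (76 genes). The list of translation factors and other genes had 0.32 (17 genes). Ribosome assembly genes had 0.060, the mTOR pathway 0.031, the paralogs 0.077 and the p53 list -0.26. The points of all pairs share the same 6 arrays and their normalization, so these values are descriptions with no p. The median over the 42 genes was 0.31 without Gb5ko replicate 1.

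Rpl22, Rpl8 and Rpl35 followed the mean of the other ribosomal protein genes most closely, at r of 0.96, 0.94 and 0.92. Rpsa followed at 0.92 and Rplp0 at 0.91, so 4 of the genes with large positive differences were among the 5 that followed the group best. At the other end stood Rps29 at -0.78, Rpl37 at -0.74 and Rps6 at -0.54. Rps9 had -0.32. Rps29 was highest on Gb5wt replicate 4, the array on which most of the others were lowest.

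**Figure D5:**
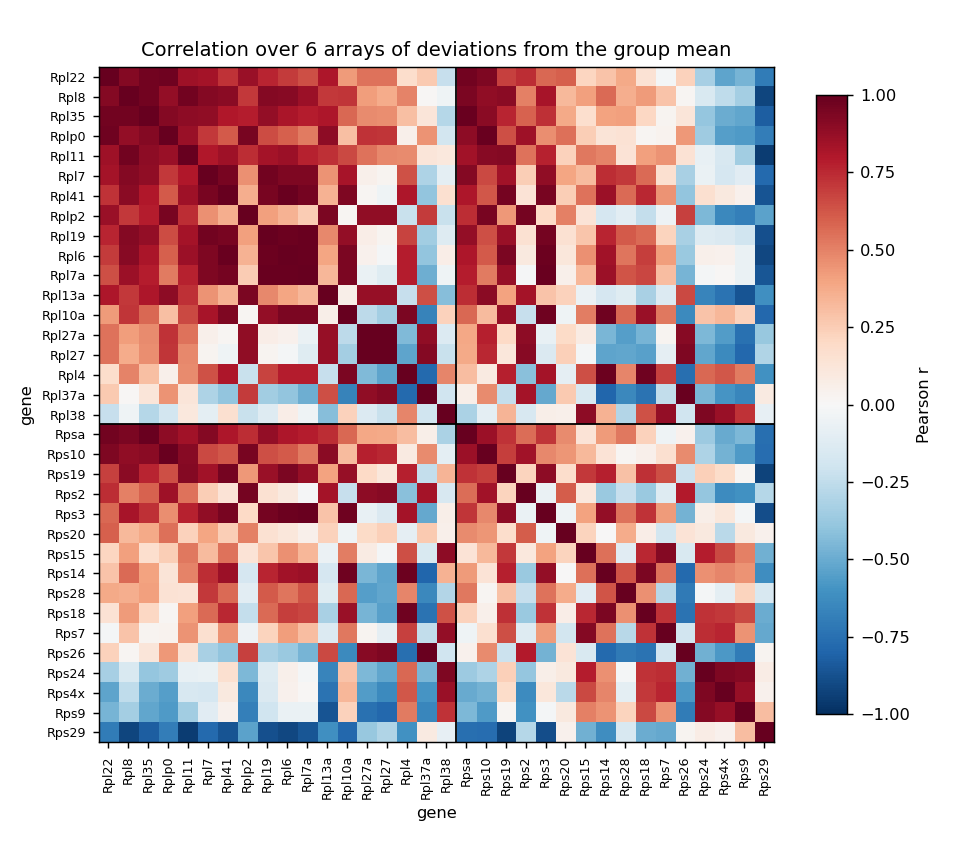
Pearson r over the 6 arrays (colour, from -1 to 1) between the levels of the 34 bright ribosomal protein genes after removal of each gene's group means, with genes on both axes, large subunit first, and each subunit ordered by correlation with the mean of the other genes. The large subunit block is mostly red, with a median of 0.635, and Rps29 forms a blue row against most of both subunits.

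Of the 42 genes 4 lie on chromosome 9, which also carries Gnb5: Rpsa, Rps25, Rpl14 and Rpl4. All 4 had positive differences, with a median of 0.21, where the 1002 genes measured on that chromosome had a median of 0.038. Rpl14, read at 8.31 by a dim probe set, had 0.13. For 3 of the 4 the value rested on single arrays: Rps25 turned to -0.11 without Gb5wt replicate 6, Rpl14 had 0.047 without Gb5ko replicate 1, and Rpl4 had 0.057 without Gb5wt replicate 4.

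Other parts of the translation system gave no adjusted call either, with 0 genes past the threshold in each list described here. Genes of ribosome assembly (35 genes, such as nucleolar processing factors and RNA polymerase I subunits) had 31 positive differences (88.6%, against 59.9% of all genes) with a median of 0.098, against 0.046 over all genes. At an unadjusted p under 0.05 there were 6 with a higher mean in Gb5ko and 0 with a lower one (17.1% and 0%, against 9.89% and 5.68% of all genes). Grwd1, an assembly chaperone of the ribosomal protein Rpl3, read 9.90, 9.63 and 9.78 in Gb5ko and 9.46, 9.45 and 9.40 in Gb5wt, a difference of 0.33 (limma adjusted p = 0.2552). Bysl, needed for the small subunit, had 0.33 and Bop1, needed for the large subunit, had 0.35, both without overlap.

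Mitochondrial ribosomal proteins, which serve the separate ribosome of that organelle, had 66 positive differences among 76 genes (86.8%, against 59.9% of all genes) and a median of 0.15. There were 15 with a higher mean in Gb5ko at an unadjusted p under 0.05 and 1 with a lower one (19.7% and 1.32%, against 9.89% and 5.68%). Mrps24 read 11.65, 11.27 and 11.34 against 11.10, 10.97 and 10.90, a difference of 0.43 (limma adjusted p = 0.2404), Mrpl37 had 0.37 and Mrpl28 had 0.35. Of the 76, 57 were highest on Gb5ko replicate 1 (75%, against 35% of genes outside the cytosolic ribosome) and 49 lowest on Gb5wt replicate 4 (64.5%, against 26%).

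A list of translation factors and other genes, taken as having the pyrimidine motif in their mRNAs, had differences of both signs. The motif was not looked for in this list. Of the 17 measured genes 10 were positive (58.8%, against 59.9% of all genes), with a median of 0.027. At an unadjusted p under 0.05 there were 2 in each direction (11.8% each, against 9.89% and 5.68%). Btf3, of the nascent chain complex, had -0.31, Eif4a2, an RNA helicase of initiation, -0.29, and Eef1d, an elongation factor subunit, 0.28. In the mTOR pathway 11 of 14 genes were positive (78.6%, against 59.9%), with a median of 0.19, and 3 had a higher mean at an unadjusted p under 0.05 and 0 a lower one (21.4% and 0%, against 9.89% and 5.68%). Mtor itself read 10.70, 10.69 and 10.63 against 10.22, 10.49 and 10.41, a difference of 0.30 (limma adjusted p = 0.2739), the S6 kinase gene Rps6kb2 had 0.36 and the translation repressor gene Eif4ebp1 0.32.

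Among 8 measured targets or regulators of p53, which is stabilised when ribosome assembly fails, 5 had lower means in Gb5ko and 3 higher ones (37.5%, against 59.9%). Sesn1, a stress-induced inhibitor of mTOR complex 1, read 10.04, 10.37 and 10.57 in Gb5ko and 10.87, 11.11 and 10.79 in Gb5wt, a difference of -0.60 (limma adjusted p = 0.2135), and Trp53inp1 had -0.545. Both had groups without overlap. Of 7 measured paralogs and related ribosome genes 4 were positive (57.1%), and Rpl7l1, a paralog of Rpl7, had -0.24.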

How the data were processed

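Levels came from the series' value table, in which the deposited values are on the log2 scale, with 1 value for each probe set on each array. Per the submitters' processing notes the authors used RMA and Partek, with no version named, and scanner files were not used here. The table held 45101 probe sets, and 64 controls were left out. Genes came from the platform annotation, and all 42 ribosomal protein genes matched the RefSeq table of GRCm38.p6 by Entrez identifier. All 6 columns were mapped to samples by title.

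The genotypes were compared in R 4.3.3 by limma 3.58.1 (lmFit, then eBayes), two-sided, with Benjamini-Hochberg adjustment over 45037 probe sets and no filter. Errors beside differences are standard errors of the fit, and their median over all probe sets was 0.123. With 3 arrays against 3, an exact permutation test cannot go below p = 0.1, so none was used. The fit was tested on simulated data.

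Genes named were the 8 largest positive and 8 largest negative differences, the 6 widest probe set gaps, the 5 brightest and 5 dimmest, the 3 highest and 3 lowest correlations with the other genes, members of role groups of at most 5 genes and of chromosome 9, and up to 3 of smallest p in each other list. Rps19 also stands for the anaemia genes. Rpsa, Rplp0, Rps19, Rpl19, Rps27 and Rps25 in the correlations, and the stretches of promoter shown, were chosen after their values were seen. The genes and all lists were chosen with earlier results of these data known. Alternatives covered normalization, the variance model, array weights, dim or cross-hybridizing probe sets, the probe set per gene and leaving out arrays.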

Additional observations from a re-analysis of the deposited data

How the results depend on the processing

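No ribosomal protein gene or probe set passed the adjusted threshold under any alternative run, including a threshold of 0.1. The other counts moved. The 4 genes at an unadjusted p under 0.05 became 10 with a trended, robust variance model, where 11.2% of all genes were higher and 6.9% lower. They became 0 to 6 when 1 array was left out. The 0 was without Gb5ko replicate 1 (5.67% and 3.79% of all genes) and the 6 without Gb5ko replicate 3 (10.3% and 5.29%). The 17 genes with separate groups became 18 to 26 when 1 array was left out (26 without Gb5ko replicate 3) and 29 without the pair of arrays of highest Gh, an alternative chosen after seeing the data. With fewer arrays groups lie apart more often, so 29.2% of all genes then lay apart upward and 17.6% downward. The median difference of 0.088 ranged from 0.056 to 0.128 over the alternatives for these genes, and it was 0.034 over probe sets listing several genes. The median r of 0.17 became 0.28 with deviations from the mean of all 6 arrays and 0.129 to 0.310 when 1 array was left out. For these changes the cause was not tested beyond the smaller number of arrays. Of 372 alternative values for 27 named genes, 11 had the other sign, in 7 genes. No paired analysis was possible because no replicate number occurs in both genotypes. The number of arrays limits the precision.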
